A study of Arabidopsis thaliana with 15 samples.

Results

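The 40 loci described here are the nuclear genes for the photosystem cores, the photosynthetic electron carriers, the chloroplast ATP synthase, Rubisco and its activase, and 5 proteins of the Calvin cycle, out of 33602 loci counted in Arabidopsis thaliana seedlings. They were taken by gene name, without the light-harvesting proteins. By complex they were 12 genes of photosystem I, 10 of photosystem II, 3 of the cytochrome b6f complex and ATP synthase, 5 of the soluble electron carriers and their reductase, 5 of Rubisco and its activase, and 5 of the Calvin cycle. Every member was listed in all 3 count tables, had reads in all 15 libraries (fewest 808 counts) and passed the filter on low counts in every comparison.

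The seedlings were wild type (Col-0) or homozygous for a mutation in eds4, were 2 weeks old by their labels (harvested after 10 to 14 days by the growth protocol), received no treatment, and grew on agarose at 22 °C under unbroken white light (50 µmol of photons a square metre each second). A profiling experiment compared 4 wild type with 3 eds4 samples of whole seedlings, using a column kit for RNA. A distribution experiment compared phenol-extracted total RNA of whole seedlings with RNA of nuclei sorted by flow cytometry, in both genotypes (n = 2 per group), and so addresses how each transcript is shared between the nucleus and the whole cell. The eds4 labels give neither the allele nor its background accession, and no label says whether replicates were separate cultures, so every p-value here reflects the spread among these libraries, which may be technical.

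In the thylakoid membrane, photosystem II takes electrons from water, the cytochrome b6f complex passes them to plastocyanin, and photosystem I passes them on to ferredoxin, from which ferredoxin-NADP reductase (FNR) makes NADPH. The proton gradient built along the way drives the ATP synthase, and NADPH and ATP are spent in the Calvin cycle, where Rubisco fixes carbon dioxide. The reaction centre proteins are encoded in the chloroplast, while the genes described here are transcribed in the nucleus and their proteins imported, and as a class they are among the most abundant mRNAs of green tissue.

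The libraries held 37277300 to 51059295 counts in the profiling experiment and 12393243 to 31745372 in the distribution experiment, with the lowest totals in nuclei. The 40 members took 6.82 to 9.35% of all counts in profiling seedlings, 10.5 to 11.2% in total RNA of the distribution experiment and 2.00 to 3.18% in nuclei. EDS4, the mutated locus (AT5G51200), lay at 63.8 to 84.3 CPM in wild type seedlings and at 31.9 to 42.2 CPM in eds4 seedlings (log2 difference -1.05, SE 0.13, adjusted p = 0.0101 by edgeR's quasi-likelihood F test, Benjamini-Hochberg adjusted). CPM, a library's counts scaled to a common size, were normalised within each experiment, so levels are not compared between experiments. In total RNA the EDS4 levels did not overlap between genotypes (81.1 to 95.8 against 29.1 to 41.3 CPM), but in the nuclei labelled eds4 they were 59.6 and 62.5 CPM, between the 48.5 and 65.6 CPM of the wild type nuclei (log2 difference 0.10, SE 0.26, adjusted p = 0.903 by edgeR). The level of this transcript therefore gave no check of the genotype of the nuclei labelled eds4, and every direction below that rests on those 2 libraries carries that limit.

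In whole seedlings of the profiling experiment the median differences of both photosystem cores lay below 0 in eds4, while those of the carbon fixation genes lay near 0. This difference between complexes was not tested. The members moved together from library to library, so they are not replicates of each other. For carbon fixation the direction depended on the eds4 library, as given below. All 12 photosystem I genes had a log2 difference below 0, with a median of -0.39 (23.6% lower), and so did all 10 photosystem II genes, with a median of -0.31 (19.1% lower). The medians were -0.10 for the cytochrome b6f complex and ATP synthase, -0.01 for the electron carriers, 0.01 for Rubisco and its activase and -0.03 for the Calvin cycle enzymes. Over all 22202 genes tested the median was 0.00.

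No single member passed the test. By the same test 0 of 40 had an adjusted p under 0.05 (background: 0.581% of all genes lower and 0.757% higher), the smallest being 0.106 for PSAL. At an unadjusted p under 0.05 there were 16 members, all lower in eds4, against 16.0% of all genes in either direction. They were 8 photosystem I genes, 7 photosystem II genes and PETE1. In 8 members every eds4 library lay below every wild type library (background 6.93%), and in 0 every eds4 library lay above (background 8.71%). These 8 were PSAE2, PSAG, PSAH2, PSAL and PSAO of photosystem I and PSBQ2, PSBR and PSBS of photosystem II. DESeq2 called 6 members lower, PSAL, PSAH2, PSAO, PSAE2, PSBQ2 and PSAD2 (adjusted p from 0.00148 to 0.0189, background 2.21%). A term for the replicate number called 5 of these, all but PSAE2 (background 0.937%). Calls of single photosystem genes therefore depended on the model.

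**Figure D1:**
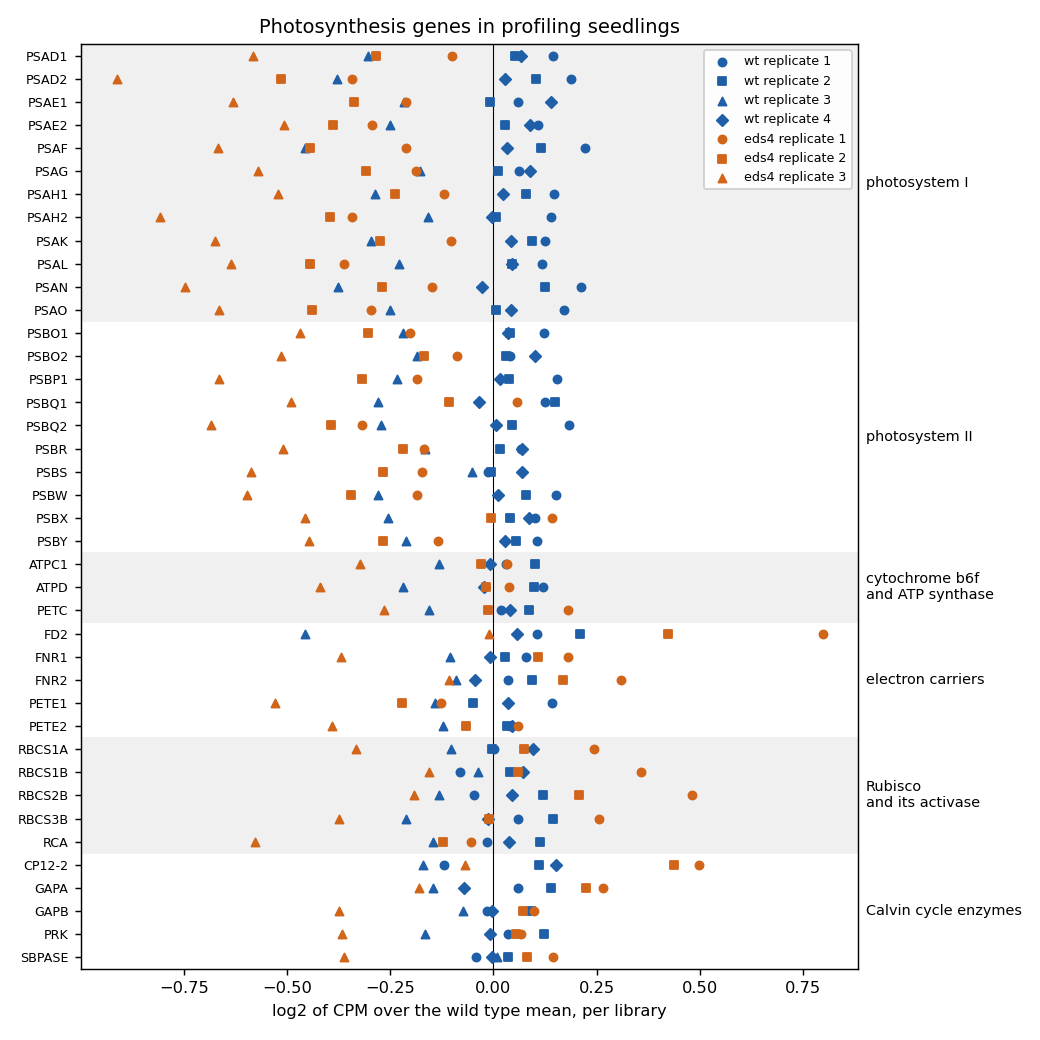
Level of each of the 40 genes in each profiling library, as log2 of its CPM over the wild type mean, with complexes in shaded bands; blue marks wild type, orange marks eds4 and the symbol gives the replicate number. Most points of eds4 for photosystem genes lie to the left of 0, replicate 3 is the lowest of its genotype in most rows, and most carbon fixation genes of eds4 replicate 1 lie to the right of 0.

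The stromal side of photosystem I, where ferredoxin docks, is built from PSAD and PSAE, each encoded by a pair of genes. PSAD2 (AT1G03130, chr1:753307-754198, TAIR10) stood at 679, 640.0, 458 and 608 CPM in the wild type and at 470.4, 417 and 317 CPM in eds4, and its log2 difference of -0.57 (SE 0.17) was the lowest of the 40 members. The highest eds4 library just exceeded the lowest wild type library, so the groups overlapped (adjusted p = 0.165 by edgeR). Its partner PSAD1 (AT4G02770) stood at 1317, 1236, 966 and 1248 CPM in the wild type and at 1111, 978 and 795 CPM in eds4, a difference of -0.31 (SE 0.15). Per kb of effective length, PSAD2 held 0.467 of the PSAD1 level in the wild type (0.444 to 0.485 over 4 libraries) and 0.389 in eds4 (0.373 to 0.399 over 3), so the 2 ranges of this ratio did not overlap. PSAE1 (AT4G28750) stood at 1213, 1158, 1002 and 1283 CPM in the wild type and at 1005, 921 and 752 CPM in eds4 (difference -0.38, SE 0.13). PSAE2, the lower of that pair, stood at 385, 364, 299.8 and 379 CPM in the wild type and at 291, 272 and 251 CPM in eds4 (difference -0.39, SE 0.11). Here the ratio of the paralogs was alike in both genotypes, 0.353 in the wild type and 0.352 in eds4.

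PSAH, PSAL and PSAO lie on the side of photosystem I that binds the mobile antenna during state transitions. PSAL (AT4G12800, chr4:7521322-7522670) stood at 2271, 2160.0, 1785 and 2161 CPM in the wild type and at 1628, 1539.7 and 1348 CPM in eds4, a difference of -0.48 (SE 0.12) with an unadjusted p of 0.00322 by edgeR, the smallest of the members. PSAO (AT1G08380, chr1:2640813-2641828), the photosystem I gene with the highest level per kb in wild type seedlings, stood at 2137, 1908, 1596 and 1957 CPM in the wild type and at 1546, 1400.1 and 1197 CPM in eds4 (difference -0.46, SE 0.13). In both genes all 3 eds4 libraries lay below all 4 wild type libraries. PSAH2 (AT1G52230, chr1:19454836-19455668) stood at 898, 819.7, 731 and 814 CPM in the wild type and at 643, 619 and 465 CPM in eds4, also without overlap (difference -0.50, SE 0.13). PSAH1, its paralog, stood at 643, 613, 476 and 589 CPM in the wild type and at 533, 491 and 404 CPM in eds4, with groups that overlapped and a difference of -0.28 (SE 0.13). The PSAH2 level per kb was 1.34 to 1.54 times that of PSAH1 in wild type libraries and 1.15 to 1.26 times in eds4 libraries.

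Among the other photosystem I genes the differences were -0.43 (SE 0.18) for PSAF, whose product docks plastocyanin, -0.35 (SE 0.12) for PSAG, -0.33 (SE 0.16) for PSAK and -0.37 (SE 0.18) for PSAN, a subunit of the lumenal side. Over the 12 genes the range was -0.57 to -0.28.

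In photosystem II the proteins PSBO, PSBP, PSBQ and PSBR belong to, or hold in place, the oxygen-evolving complex. PSBQ2 (AT4G05180, chr4:2671822-2673243) stood at 1536, 1395, 1119 and 1358 CPM in the wild type and at 1083, 1028 and 841 CPM in eds4, groups that did not overlap, with a difference of -0.46 (SE 0.13). Its paralog PSBQ1 (AT4G21280) stood at 1121, 1141, 848 and 1004 CPM in the wild type and at 1069.8, 954 and 731 CPM in eds4, with a difference of -0.16 (SE 0.15) and groups that overlapped. PSBQ2 was above PSBQ1 per kb in all 4 wild type libraries (1.07 to 1.2 times) and about level with it in eds4 (0.884 to 1.00 times). PSBR, the photosystem II gene with the highest level per kb, stood at 3276, 3164, 2788 and 3280.5 CPM in the wild type and at 2784, 2685 and 2197 CPM in eds4 (difference -0.29, SE 0.12). The eds4 library with the highest value lay only just below the lowest wild type library. PSBO1 (AT5G66570) stood at 4318, 4077, 3405 and 4067 CPM in the wild type and at 3449, 3215 and 2864 CPM in eds4 (difference -0.32, SE 0.12). PSBO2, the minor form, stood at 1234, 1225, 1055 and 1287 CPM in the wild type and at 1128, 1068 and 839 CPM in eds4 (difference -0.25, SE 0.12). The ratio of PSBO2 to PSBO1 per kb was 0.303 in the wild type and 0.318 in eds4, with overlapping ranges. Ranges apart by genotype, as in PSAD, PSAH and PSBQ, were not particular to photosystem pairs. PETE1 over PETE2 was apart (0.0984 to 0.112 in wild type, 0.0915 to 0.0948 in eds4). So were GAPB over GAPA (0.927 to 1.027 and 0.854 to 0.879) and RBCS2B over RBCS1A (0.639 to 0.720 and 0.726 to 0.780). Ranges overlapped for FNR2 over FNR1 and for RBCS1B and RBCS3B over RBCS1A.

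PSBS, the sensor protein of photoprotective quenching, stood at 1555, 1563, 1514 and 1645 CPM in the wild type and at 1392, 1304 and 1044 CPM in eds4, without overlap (difference -0.33, SE 0.11). PSBP1 had a difference of -0.38 (SE 0.14) and PSBW, which stabilises the supercomplex with the antenna, of -0.37 (SE 0.14). The small membrane subunits PSBY and PSBX had differences of -0.28 (SE 0.11) and -0.09 (SE 0.15), the latter the closest to 0 of the 10 photosystem II genes and above 0 (0.06) without eds4 replicate 3.

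Between the photosystems and beyond them the levels were closer to the wild type. PETC, the Rieske iron-sulphur protein of the cytochrome b6f complex and the highest of its group per kb, stood at 929, 974, 823 and 943 CPM in the wild type and at 1039.7, 909 and 764 CPM in eds4 (difference -0.02, SE 0.12). ATPC1 and ATPD, the gamma and delta subunits of the ATP synthase, had differences of -0.10 (SE 0.11) and -0.12 (SE 0.13). PETE2, the main plastocyanin gene, stood at 2519, 2508, 2251 and 2529 CPM in the wild type and at 2557, 2339.7 and 1868 CPM in eds4 (difference -0.12, SE 0.12). PETE1, the minor plastocyanin gene, stood at 236, 207, 194 and 219 CPM in the wild type and at 196, 183 and 148 CPM in eds4 (difference -0.28, SE 0.11). The groups overlapped in both plastocyanin genes. FNR1 (AT5G66190) stood at 949.5, 917, 836 and 895 CPM in the wild type and at 1019, 969.7 and 696 CPM in eds4, and its difference of -0.01 (SE 0.13) was near 0. FNR2 (AT1G20020) stood at 715, 744, 655 and 677 CPM in the wild type and at 865, 784 and 647 CPM in eds4 (difference 0.13, SE 0.11). FD2, the main ferredoxin of leaves, had the highest difference of all members, 0.44 (SE 0.21), with libraries at 687, 738, 465 and 664 CPM in the wild type and at 1110.4, 856 and 634 CPM in eds4. The eds4 libraries of FD2 spanned a wider range on the log2 scale than those of any other member, and the groups overlapped (adjusted p = 0.349 by edgeR).

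The genes of the small subunit of Rubisco were the most abundant of the members per kb. RBCS1A (AT1G67090) stood at 10849, 10813, 10093 and 11568 CPM in the wild type and at 12813, 11396 and 8590.1 CPM in eds4 (difference 0.01, SE 0.15). RBCS1B (AT5G38430) stood at 5545, 6034, 5719 and 6163 CPM in the wild type and at 7520.2, 6111 and 5267 CPM in eds4 (difference 0.10, SE 0.14). In both genes the highest and the lowest of the 7 libraries were eds4 libraries. RBCS2B (AT5G38420) stood at 5828, 6540.5, 5493 and 6208 CPM in the wild type and at 8393, 6949 and 5261 CPM in eds4 (difference 0.19, SE 0.16). RBCS3B (AT5G38410) stood at 10753, 11406, 8906 and 10228 CPM in the wild type and at 12325, 10237 and 7969.5 CPM in eds4 (difference -0.02, SE 0.17). In all 4 genes the eds4 library of replicate 1 lay above every wild type library and that of replicate 3 below every wild type library, so the spread within eds4 covered the whole wild type range. RCA, Rubisco activase, had a difference of -0.23 (SE 0.15). In the Calvin cycle, GAPA (AT3G26650) stood at 1789, 1890.5, 1549 and 1633 CPM in the wild type and at 2062, 2003 and 1513 CPM in eds4 (difference 0.12, SE 0.13). GAPB, the other subunit type of the chloroplast glyceraldehyde-3-phosphate dehydrogenase, stood at 1906, 2050.3, 1829 and 1921 CPM in the wild type and at 2063, 2025 and 1487 CPM in eds4 (difference -0.05, SE 0.13). PRK, which makes the acceptor of carbon dioxide, and SBPASE had differences of -0.07 (SE 0.13) and -0.03 (SE 0.12), and CP12-2, a small protein that ties GAPDH and PRK together in the dark, of 0.31 (SE 0.15).

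**Figure D2:**
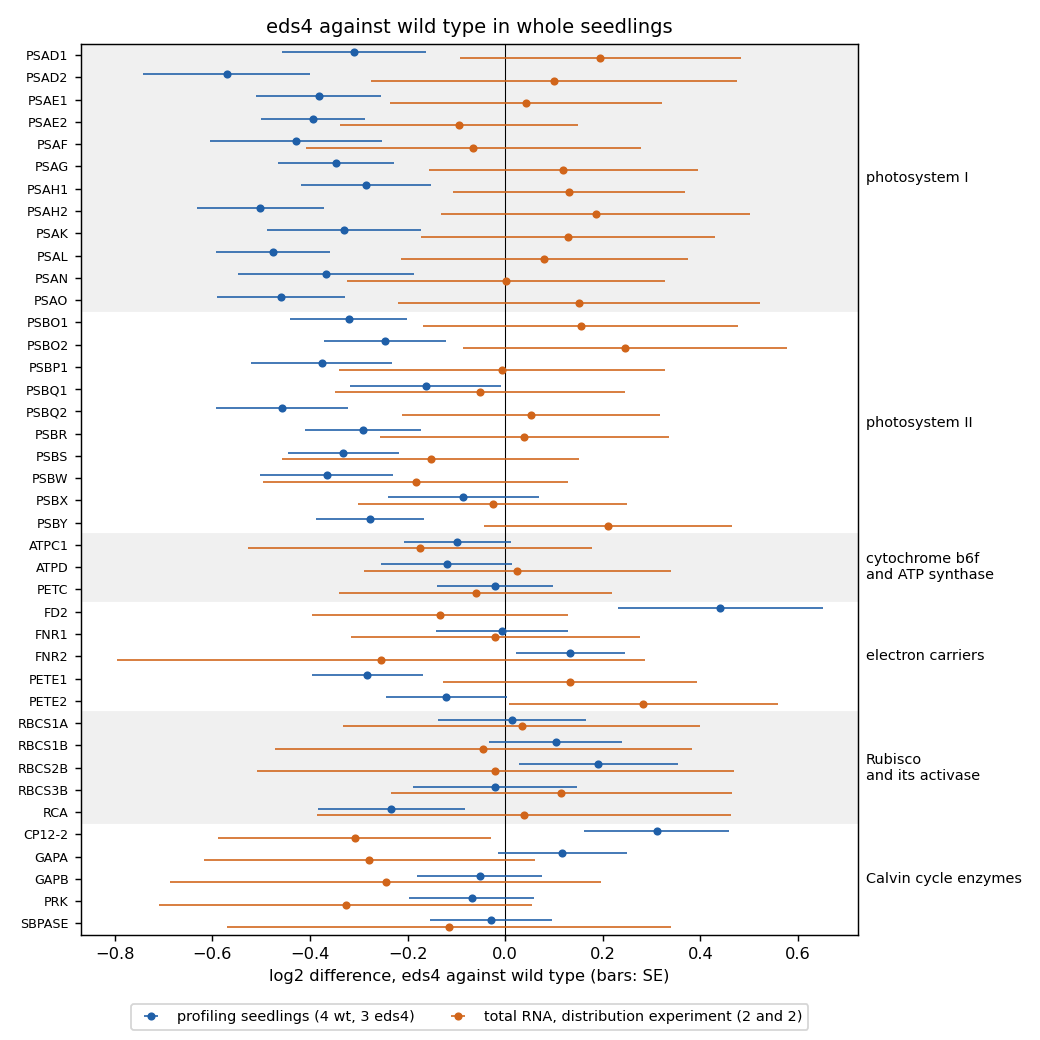
Log2 difference of eds4 against wild type for each of the 40 genes, with SE bars, in profiling seedlings (blue, 4 and 3 libraries) and in total RNA of the distribution experiment (orange, 2 and 2). Blue points of both photosystems all lie below 0, with medians of -0.39 and -0.31, whereas the orange points scatter around 0.

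Members moved together from library to library. Replicate 3 was the lowest of its group in 38 of 40 members in the wild type and in 40 of 40 in eds4, and replicate 1 of eds4 was the highest in 40 of 40. The difference was also taken within replicates 1 and 2 and within replicates 3 and 4. No label or header groups the replicates in this way, so these sets are not a known batch. The latter hold 1 eds4 library, so their values rest on it alone. Within replicates 1 and 2 the photosystem I median was -0.39 and the photosystem II median -0.26, with 12 of 12 and 10 of 10 genes below 0. The Calvin cycle median there was 0.12 and that of Rubisco and its activase 0.16. With the 1 eds4 library of replicates 3 and 4 the medians were -0.54 in photosystem I and -0.46 in photosystem II. They were then also below 0 in the Calvin cycle (-0.28) and in Rubisco and its activase (-0.26). A term for the replicate set gave 7 calls, all lower (the 6 genes called by DESeq2 and PSBW, background 1.91%), and replicates 1 and 2 alone gave 2, PSAD2 and PSAL (background 1.3%).

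Other genes of the pathway set these values in context. Of 20 light-harvesting antenna genes 12 fell in eds4 seedlings and 0 rose, with a median of -0.85; the smallest adjusted p values belonged to LHCB1.2 (-1.3), LHCB1.1 (-1.21) and LHCB2.3 (-1.56). The summed antenna level was 48928 to 67035 CPM in wild type and 29805 to 35788 CPM in eds4 libraries, without overlap, while the summed level of the 40 members was 77377 to 91406 and 64995 to 92698 CPM. Of 14 other Calvin cycle genes 0 passed (median -0.01), and of 9 other genes of electron transport and the photosystems 0 passed (median -0.13). Of 11 regulators of photosynthesis genes 2 fell, PIF4 (-0.87, SE 0.11) and GLK2 (-0.37, SE 0.07), and HY5 rose (0.72, SE 0.08). GLK2 is an activator of photosystem and antenna genes, PIF4 a repressor of light responses and HY5 an activator of them. Of 18 chloroplast-encoded partner subunits 0 passed (median -0.25), and of 3 ferredoxin and FNR genes typical of roots 0 passed (median -0.06).

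Promoters of 3 members that hold motif matches are shown as examples. PSAH2 and PSBQ2 were called lower in eds4 by DESeq2, by the term for the replicate number and by that for replicate sets. RBCS2B shares their G-box and I-box motifs and had a difference above 0. PSAL, PSAD2 and PSAO were called lower by the same 3 models, but held none of the motifs marked here and are not shown. Each is the 250 bases before the annotated start, 5′ to 3′ in the direction of the gene, from the RefSeq TAIR10.1 genome and in its coordinates. Capitals mark the G-box CACGTG, the I-box GATAAG or its reverse CTTATC, and CCAATC or its reverse GATTGG.
PSAH2 promoter, chr1:19454548-19454797, plus strand: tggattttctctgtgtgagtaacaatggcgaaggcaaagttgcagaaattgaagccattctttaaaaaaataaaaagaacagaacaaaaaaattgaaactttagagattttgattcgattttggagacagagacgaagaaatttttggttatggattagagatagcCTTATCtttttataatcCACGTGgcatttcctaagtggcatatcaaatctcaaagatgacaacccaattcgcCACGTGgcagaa
PSBQ2 promoter, chr4:2673244-2673493, minus strand: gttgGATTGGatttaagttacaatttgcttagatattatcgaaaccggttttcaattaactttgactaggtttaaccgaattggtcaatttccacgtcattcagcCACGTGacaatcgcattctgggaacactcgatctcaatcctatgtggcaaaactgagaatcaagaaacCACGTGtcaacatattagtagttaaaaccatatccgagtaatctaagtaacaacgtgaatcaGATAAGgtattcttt
RBCS2B promoter, chr5:15382072-15382321, minus strand: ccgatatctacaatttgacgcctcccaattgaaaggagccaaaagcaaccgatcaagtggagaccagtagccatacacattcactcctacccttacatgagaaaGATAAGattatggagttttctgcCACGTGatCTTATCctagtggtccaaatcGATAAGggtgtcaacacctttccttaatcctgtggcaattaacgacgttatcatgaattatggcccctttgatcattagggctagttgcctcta
PSAH2 held 2 G-box matches and 1 I-box match, PSBQ2 held 2 G-box matches and 1 match each of the I-box and CCAATC, and RBCS2B held 1 G-box match and 3 I-box matches. Searched on both strands, the G-box was in 17.5% of the 40 member promoters and in 6.49% of 27443 protein-coding promoters of the same length. The I-box was in 27.5% and 12.3%, and CCAATC in 12.5% and 10.2%. CCAATC was in 0 of 12 photosystem I promoters and in 10 of 20 antenna promoters. PSAL, PSAD2 and PSAO held none of these 3 motifs in their windows, so genes with low values in eds4 were found both with and without them.

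The distribution experiment measured the genotype effect in whole seedlings once more, and there the photosystem genes as a group did not lie below the wild type. In total RNA 0 of 40 members passed in either direction (background 0.00465% lower and 0.0% higher by edgeR), 0 had an unadjusted p under 0.05 (background 2.82%) and DESeq2 called 0. The genotypes did not overlap in 7 members, lower in eds4 in PSBS, GAPA and PRK (background 20.7%) and higher in PETE2, PSAH1, PSBO2 and PSBY (background 17.2%). The median was 0.01, and 10 of 12 photosystem I genes lay above 0 with a median of 0.11. The highest and the lowest difference were 0.28 (SE 0.28) for PETE2 and -0.33 (SE 0.38) for PRK. All 5 Calvin cycle enzymes lay below 0 with a median of -0.28, where the profiling experiment had -0.03. Leaving out eds4 replicate 2 moved the median of all members to 0.16 and leaving out replicate 1 moved it to -0.14.

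The difference between the experiments was itself tested as an interaction over the 11 whole-seedling libraries. By edgeR and by DESeq2 0 of 40 members passed (edgeR background 0.00444% in each direction), and 7 had an unadjusted p under 0.05 (9.39% of all genes in either direction), all with the lower value in the profiling experiment. These were PSAH2 at -0.72 (SE 0.23), PSBY, PSAL, PSAO, PSAG, PSBQ2 and PSBO2. The median change of the genotype effect was -0.49 in photosystem I and -0.38 in photosystem II, with every gene of both below 0, and 0.23 in the Calvin cycle. With 2 libraries per group the SE of a single gene in total RNA was 0.24 to 0.54, against photosystem medians of -0.39 and -0.31 in the profiling experiment, so a difference of that size was not detectable gene by gene in total RNA. Across the 40 genes the genotype differences of the 2 experiments were negatively correlated, with a Pearson r of -0.52 and a Spearman rho of -0.46. The total RNA differences ran only from -0.33 to 0.28, small beside these SE, with 19 genes below and 21 above 0. The correlation is a description across genes that are not independent. The experiments also differed in extraction, and the part of extraction in these values was not tested.

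Sorted nuclei held far less of these transcripts than whole seedlings did. In the wild type 39 of 40 members fell in nuclei against total RNA (background 15.6% of all genes lower, edgeR adjusted p under 0.05), with a median log2 ratio of -2.29, or 4.89-fold lower, where the median of all genes was 0.00. Among the libraries labelled eds4 38 of 40 fell (background 14.0%), with a median of -2.28, or 4.85-fold lower, and 0.09 over all genes. In both genotypes every nuclear library lay below every total RNA library in 39 of 40 members, all but FNR2 (background 35.4% in the wild type and 32.1% in eds4). Scaling sets the typical gene to no change, so each ratio is relative to it and is not a share of molecules in the nucleus. In bulk RNA fewer nuclei of green cells and fewer transcripts per nucleus cannot be told apart. The fall was not a matter of these genes alone: of 598 genes at least as abundant in wild type total RNA as the lowest member (237 CPM), members included, 65.4% fell with a median of -1.32, and in eds4 65.6% of 540 fell with a median of -1.46. Both sets were picked by their level in total RNA, the denominator of the ratio, and such a choice by itself favours low ratios.

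Other lists were counted in the same way. In wild type and eds4, 17 and 17 of 20 antenna genes fell, 11 and 12 of 14 other Calvin cycle genes, 7 and 6 of 9 other electron transport genes, and 0 and 1 of 3 root-type ferredoxin and FNR genes. Of the 11 regulators 3 fell and 0 rose in the wild type, and 2 fell and 3 rose in eds4. For comparison, 15.1% of all genes rose in wild type nuclei and 15.6% in eds4. Of the chloroplast-encoded partner subunits 4 and 12 of 18 fell, at levels near the floor in these poly(A)-selected libraries. In nuclei they summed to 25.3 to 78.8 CPM in the wild type and 5.37 to 17.3 CPM in eds4. There 1 and 3 of the genes were at 0 in all nuclear libraries of the genotype. By edgeR 0 of 18 passed in the change of ratio, so 4 against 12 is not read as a difference between genotypes. Markers of other cell types differed in direction. Of 6 endodermis markers 3 rose in wild type nuclei (summed level 103 to 123 CPM against 51.7 to 51.9 CPM in total RNA) and 0 in eds4 (66.9 to 80.7 against 37.9 to 59.5 CPM). SCR of that list lay lower in wild type nuclei (23.7 and 22.1 CPM against 35.4 and 31.7 CPM in total RNA). Of 5 epidermis markers 4 fell in the wild type and 3 in eds4, of 5 phloem markers 2 and 3, and of 4 guard cell markers 2 and 1, with 0 rising in each. Root hair markers summed to at most 9.72 CPM in any library of this experiment, with 2 of 6 genes at 0 in all nuclei and 0 of the 4 tested called. The part of cell type in the ratios of the photosynthesis genes was not tested.

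**Figure D3:**
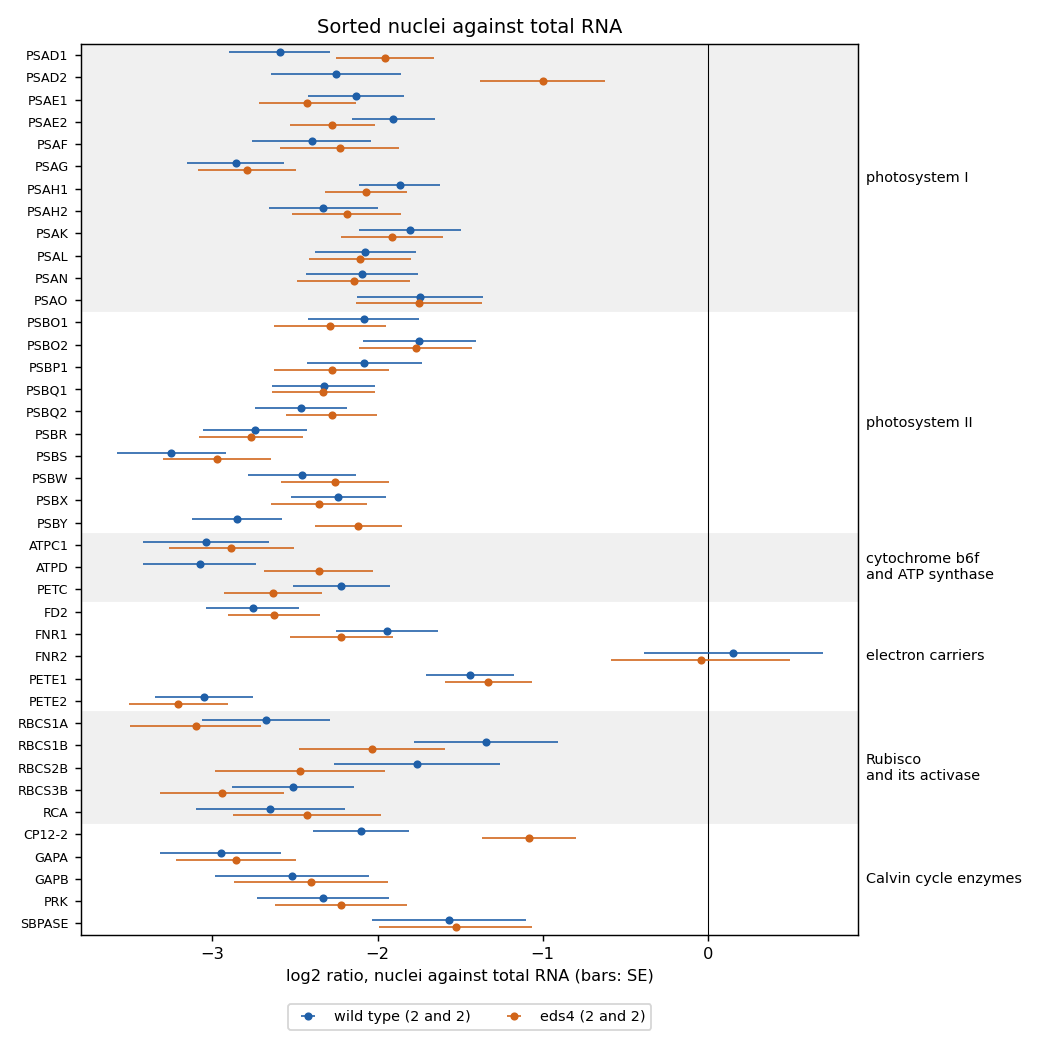
Log2 ratio of sorted nuclei against total RNA for each of the 40 genes, with SE bars, in the wild type (blue) and in libraries labelled eds4 (orange), 2 libraries per group. FNR2 alone lies near 0, and PSAD2 and CP12-2 are the genes with the widest gap between genotypes.

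By complex the wild type medians ran from -1.94 for the electron carriers to -3.04 for the cytochrome b6f complex and ATP synthase, with photosystem I at -2.11, photosystem II at -2.39, the Calvin cycle at -2.33 and Rubisco and its activase at -2.51. In eds4 the medians were -2.22, -2.63, -2.13, -2.28, -2.22 and -2.47 in the same order. The ranges of the complexes overlapped. Across the 40 genes the wild type and eds4 ratios, which share no library, correlated with a Pearson r of 0.78 and a Spearman rho of 0.71 (0.65 and 0.68 without FNR2). That is a description across genes of the same pathway, which are not independent.

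The lowest wild type ratio was that of PSBS, -3.25 (SE 0.33), with 1117 and 1035 CPM in total RNA and 131 and 95.2 CPM in nuclei in the wild type. In eds4 it stood at 1034 and 902 CPM in total RNA and 152 and 95.0 CPM in nuclei. ATPD followed at -3.08 (SE 0.34), with 574 and 387 CPM in total RNA and 60.3 and 53.5 CPM in nuclei in the wild type. PETE2 came next at -3.05 (SE 0.30), with 2883 and 3184 CPM in total RNA and 389 and 342 CPM in nuclei in the wild type and 3927 and 3454 CPM in total RNA and 414 and 385 CPM in nuclei in eds4. For each of these genes every nuclear library lay far below every total RNA library of its genotype. PETE1, the minor partner of PETE2, at 208 and 267 CPM in total RNA and 92.4 and 82.6 CPM in nuclei in the wild type and 304 and 217 CPM in total RNA and 98.9 and 108 CPM in nuclei in eds4, had a ratio of only -1.44 (SE 0.27), among the 3 highest. PETE1 held 0.0933 of the PETE2 level per kb in wild type total RNA (0.0863 to 0.10) and 0.286 in wild type nuclei (0.284 to 0.289). In eds4 the ratio was 0.0838 (0.0750 to 0.0925) in total RNA and 0.311 (0.286 to 0.336) in nuclei, again without overlap.

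FNR2 (AT1G20020, chr1:6942717-6945018) was the exception among the members. It stood at 1670.3 and 1337 CPM in total RNA and 2373 and 972 CPM in nuclei in the wild type, and at 1589.6 and 931 CPM in total RNA and 1814 and 633 CPM in nuclei in eds4. Replicate 1 was above replicate 2 in each of these 4 groups, and the ranges of nuclei and total RNA overlapped in both genotypes. The log2 ratio was 0.15 (SE 0.54) in the wild type (adjusted p = 0.857) and -0.04 (SE 0.54) in eds4 (adjusted p = 0.964, both by edgeR with Benjamini-Hochberg adjustment). Its SE was the widest of the 40 members, and its sign was not fixed in either genotype. Leaving out 1 library gave -0.65 (without nuclei replicate 1) to 0.66 (without nuclei replicate 2) in the wild type, and -1.01 to 0.51 in eds4 with the same nuclear replicates left out. FNR1, the other leaf form of the same enzyme, which anchors FNR2 to the thylakoid membrane, stood at 1138 and 1321 CPM in total RNA and 369 and 271 CPM in nuclei in the wild type and 1318 and 1107 CPM in total RNA and 305 and 216 CPM in nuclei in eds4. It fell like the rest, with ratios of -1.94 (SE 0.31) and -2.22 (SE 0.31). FNR2 held 1.34 times the FNR1 level per kb in wild type total RNA (1.09 to 1.59) and 5.41 times in wild type nuclei (3.88 to 6.95). In eds4 the values were 1.11 (0.909 to 1.3) and 4.80 (3.17 to 6.42), so in both genotypes the ranges of nuclei and total RNA did not overlap. In profiling seedlings the ratio was 0.839 in the wild type and 0.932 in eds4. FNR1 and FNR2 share no exonic stretch of 50 bases, and no overlapping locus was listed for either. Whether reads from introns were counted is not given in the sources used here.

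**Figure D4:**
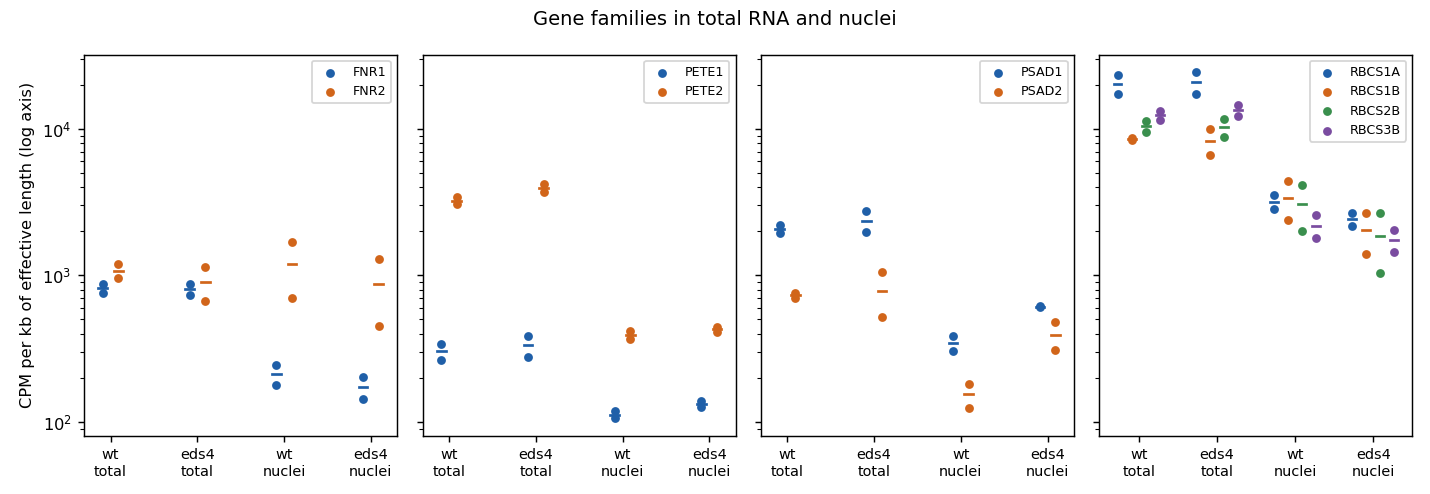
CPM per kb of effective length (log axis) of the FNR, PETE, PSAD and RBCS genes in total RNA and nuclei of both genotypes; points are libraries and bars are group means. FNR1 is lower in nuclei while FNR2 lies near its total RNA level, PETE1 and PETE2 draw closer, and the 4 RBCS genes are in another order than in total RNA.

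The small-subunit genes of Rubisco also differed among themselves. Their sequences bear on how far reads can tell them apart: the first 90 coding bases, from the RefSeq TAIR10.1 genome, are given with capitals where a base differs from RBCS2B.
RBCS1A, chromosome 1: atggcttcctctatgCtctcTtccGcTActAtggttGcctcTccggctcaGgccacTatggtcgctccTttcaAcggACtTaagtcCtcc
RBCS1B, chromosome 5: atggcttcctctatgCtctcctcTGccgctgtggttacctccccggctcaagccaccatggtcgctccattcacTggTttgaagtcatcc
RBCS2B, chromosome 5: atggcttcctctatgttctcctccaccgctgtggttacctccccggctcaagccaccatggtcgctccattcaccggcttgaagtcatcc
RBCS3B, chromosome 5: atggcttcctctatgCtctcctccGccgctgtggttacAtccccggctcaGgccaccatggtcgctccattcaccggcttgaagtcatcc
RBCS1A differed from RBCS2B at 16 of these bases, RBCS1B at 5 and RBCS3B at 4. Over the whole coding sequence RBCS1B and RBCS2B, neighbours on chromosome 5, were 97.3% identical (15 of 546 bases differ). Of the exonic windows of 50 bases, 12.0% in RBCS1B, 16.9% in RBCS2B and 16.5% in RBCS3B occur again in another of these 3 genes, and 0 of RBCS1A do. How the authors counted reads with several matches is not given in the sources used here, so the split among RBCS1B, RBCS2B and RBCS3B is uncertain. No other member has such a shared window.

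RBCS1A stood at 17802 and 23943 CPM in total RNA and 3645 and 2889 CPM in nuclei in the wild type, and at 17623 and 25097 CPM in total RNA and 2748 and 2231 CPM in nuclei in eds4. RBCS3B stood at 11573 and 13259.6 CPM in total RNA and 2562 and 1793 CPM in nuclei in the wild type, and at 12302 and 14590.0 CPM in total RNA and 2042 and 1453 CPM in nuclei in eds4. Their wild type ratios were -2.68 (SE 0.39) and -2.51 (SE 0.37), both below the median of the members. RBCS1B, with 6839.5 and 7048 CPM in total RNA and 3546 and 1930.4 CPM in nuclei in the wild type and 5358 and 8107 CPM in total RNA and 2158 and 1132 CPM in nuclei in eds4, had the second highest ratio of the members, -1.34 (SE 0.43). RBCS2B, with 8162 and 9744 CPM in total RNA and 3541 and 1734 CPM in nuclei in the wild type and 7626 and 10031 CPM in total RNA and 2291 and 899 CPM in nuclei in eds4, had a ratio of -1.76 (SE 0.50). Both fell by the test, but neither call held whichever library was left out. RBCS1B held 0.430 of the RBCS1A level per kb in wild type total RNA (0.373 to 0.487) and 1.04 in nuclei (0.848 to 1.23). The wild type nuclear libraries of RBCS1B and RBCS2B differed from each other by more than those of RBCS1A, with replicate 1 the higher.

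GAPA and GAPB, the paired subunits of the Calvin cycle dehydrogenase, fell alike. GAPA stood at 2809 and 3223 CPM in total RNA and 395 and 386 CPM in nuclei in the wild type (ratio -2.95, SE 0.37) and at 2533 and 2442 CPM in total RNA and 452 and 234 CPM in nuclei in eds4. GAPB stood at 1603 and 1984 CPM in total RNA and 411 and 215 CPM in nuclei in the wild type (ratio -2.52, SE 0.47) and at 1367 and 1659.9 CPM in total RNA and 405 and 166 CPM in nuclei in eds4. SBPASE had the highest ratio of the Calvin cycle enzymes, -1.57 (SE 0.47), and RCA one of -2.65 (SE 0.45). PETC stood at 1297 and 1487 CPM in total RNA and 325 and 273 CPM in nuclei in the wild type (ratio -2.22, SE 0.29) and at 1488 and 1182 CPM in total RNA and 243 and 188 CPM in nuclei in eds4.

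In photosystem II, PSBR stood at 5169 and 5847 CPM in total RNA and 899.9 and 747 CPM in nuclei in the wild type (ratio -2.74, SE 0.32) and at 6113 and 5204 CPM in total RNA and 881 and 780.4 CPM in nuclei in eds4. PSBO1 stood at 5009 and 5601 CPM in total RNA and 1452 and 1051 CPM in nuclei in the wild type (ratio -2.08, SE 0.34) and at 6807 and 4999 CPM in total RNA and 1314 and 1107 CPM in nuclei in eds4. PSBO2 stood at 1084 and 1063 CPM in total RNA and 378 and 262 CPM in nuclei in the wild type (ratio -1.75, SE 0.34) and at 1445 and 1101 CPM in total RNA and 469 and 278 CPM in nuclei in eds4. In these 3 genes every nuclear library lay below every total RNA library of either genotype. PSBQ1 stood at 1435 and 1232 CPM in total RNA and 271 and 260.4 CPM in nuclei in the wild type (ratio -2.33, SE 0.31) and at 1529 and 1043 CPM in total RNA and 295 and 217 CPM in nuclei in eds4. PSBQ2 stood at 1595 and 1649.7 CPM in total RNA and 304 and 284 CPM in nuclei in the wild type (ratio -2.47, SE 0.28) and at 1881 and 1486 CPM in total RNA and 360.3 and 333 CPM in nuclei in eds4.

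In photosystem I, PSAO stood at 2312 and 2227 CPM in total RNA and 847 and 508 CPM in nuclei in the wild type (ratio -1.74, SE 0.38) and at 3054 and 1989 CPM in total RNA and 923 and 578 CPM in nuclei in eds4. PSAE1 stood at 1289 and 1441 CPM in total RNA and 363 and 261 CPM in nuclei in the wild type (ratio -2.13, SE 0.29) and at 1429 and 1384 CPM in total RNA and 286 and 238 CPM in nuclei in eds4. PSAE2 stood at 621 and 716 CPM in total RNA and 189 and 168 CPM in nuclei in the wild type (ratio -1.90, SE 0.25) and at 665 and 586 CPM in total RNA and 134 and 124 CPM in nuclei in eds4. PSAG had the lowest wild type ratio of the complex, -2.86 (SE 0.30), and PSAO the highest. PSAH1 stood at 685 and 696 CPM in total RNA and 190.2 and 189 CPM in nuclei in the wild type (ratio -1.87, SE 0.25) and at 804 and 707 CPM in total RNA and 177 and 182 CPM in nuclei in eds4. PSAH2 stood at 587 and 498 CPM in total RNA and 135 and 80.8 CPM in nuclei in the wild type (ratio -2.33, SE 0.33) and at 674 and 559 CPM in total RNA and 159.8 and 111 CPM in nuclei in eds4. The PSAH2 level per kb, above that of PSAH1 in profiling seedlings, was below it in total RNA (0.788 times) and in nuclei (0.571 times) of the wild type. Of the 39 wild type calls 35 held whichever library was left out (PSAO, RBCS1B, RBCS2B and SBPASE did not), as did 36 of 38 in eds4 (SBPASE and CP12-2 did not).

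In the nuclei labelled eds4 0 of 40 members passed against wild type nuclei by edgeR (background 0.0512% lower and 0.312% higher), and 5 had an unadjusted p under 0.05, all higher (14.1% of all genes in either direction): PSAD2, PSBY, PSAD1, ATPD and CP12-2. DESeq2 called 2 of them, PSBY (0.86, adjusted p = 0.0162) and PSAD2 (1.26, adjusted p = 0.019), against 2.15% of all genes higher. With no filter on low counts edgeR called PSAD2 (adjusted p = 0.00285), in a fit that called 1167 of all genes where the filtered fit called 78. In the other direction RBCS1B and RBCS2B had differences of -0.74 (SE 0.43) and -0.73 (SE 0.49), larger in size than that of CP12-2, with unadjusted p values above 0.05.

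PSAD2 stood at 163 and 112 CPM in wild type nuclei and at 427 and 274 CPM in the nuclei labelled eds4, a log2 difference of 1.35 (SE 0.38). In total RNA it stood at 679.9 and 629 CPM in the wild type and at 936 and 467 CPM in eds4, where the genotypes overlapped. Its nuclear-to-total ratio was -2.25 (SE 0.39) in the wild type and -1.0 (SE 0.38) in eds4, where it missed the threshold (adjusted p = 0.0727 by edgeR). DESeq2, a replicate block, no filter on low counts, upper-quartile scaling and leaving out eds4 total RNA replicate 2 each called it lower there, 5 of 11 alternatives (adjusted p from 0.00941 to 0.0495), and 6 did not. Without single libraries the ratio ran from -1.43 (without eds4 total RNA replicate 2) to -0.43 (without eds4 total RNA replicate 1). PSAD1 stood at 319.9 and 253 CPM in wild type nuclei and at 508 and 514 CPM in the nuclei labelled eds4 (difference 0.83, SE 0.29), while total RNA held 1839 and 1617 CPM in the wild type and 2293 and 1662 CPM in eds4. Both genes of the pair thus lay higher in both nuclear libraries of eds4 than in either of the wild type. PSBY stood at 113 and 88.4 CPM in wild type and at 208 and 179.5 CPM in the nuclei labelled eds4 (difference 0.95, SE 0.26). PSBY thus had all 4 nuclear libraries apart by genotype. CP12-2 stood at 133 and 104 CPM and 213 and 174 CPM (difference 0.71, SE 0.28). ATPD stood at 60.3 and 53.5 CPM and 114 and 76.5 CPM (difference 0.75, SE 0.32). None of the 5 overlapped between genotypes, but they were picked by their p-values in this same comparison, so this adds no support. In all, 7 members lay higher without overlap (background 19.6%) and 4 lower (background 18.8%).

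The change of the nuclear-to-total ratio between genotypes, the interaction of the 8 libraries, passed for 0 of 40 members and for 0 of all genes (0.0%) by edgeR, and DESeq2 called 0 members and 40 genes. At an unadjusted p under 0.05 there were 2 members (5.83% of all genes in either direction), PSAD2 at 1.25 (SE 0.53) and CP12-2 at 1.02 (SE 0.40). PSBY had a change of 0.74 (SE 0.36), ATPD of 0.72 (SE 0.45) and PSAD1 of 0.64 (SE 0.41). At the other end were RBCS2B at -0.70 (SE 0.69) and RBCS1B at -0.69 (SE 0.60). The median of the 40 members was 0.00 and that of all genes 0.04.

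**Figure D5:**
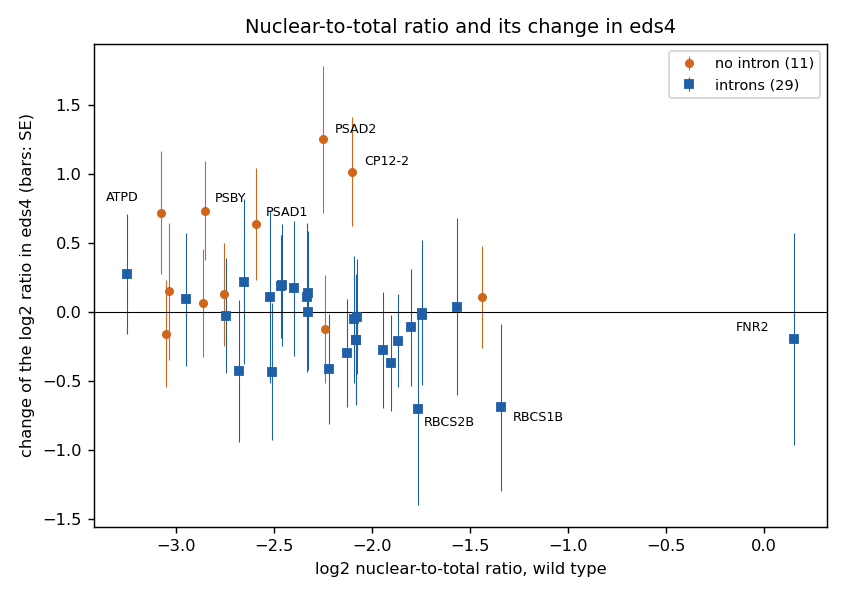
Change of the log2 nuclear-to-total ratio in eds4 (vertical, with SE) against the wild type ratio (horizontal) for the 40 genes; orange marks the 11 genes without introns and blue the 29 with introns. The 5 highest points, PSAD2, CP12-2, PSBY, ATPD and PSAD1, are all genes without introns.

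All 5 of these genes have no intron in the reference annotation, a grouping made after their values were seen and given without a test. The 11 members without introns were these 5 and PETE1, PETE2, PSAG, PSBX, ATPC1 and FD2. Their median change of ratio was 0.15, with 9 of 11 above 0, against -0.03 with 10 of 29 above 0 in members with introns. Leaving out 1 library moved the median of the members without introns between 0.05 (6 of 11 above 0, without eds4 total RNA replicate 2) and 0.63 (without eds4 total RNA replicate 1), and that of members with introns between -0.43 (without eds4 nuclei replicate 1) and 0.20 (without eds4 nuclei replicate 2). Without wild type nuclei replicate 1 the medians were 0.20 and 0.14, with 10 of 11 and 19 of 29 above 0. Over all genes the medians were 0.31 for 4092 genes without introns and 0.00 for 17392 with introns. Between genotypes in nuclei the medians were 0.24 and -0.08 in members and 0.37 and -0.04 in all genes. Over all genes the order turned in the change of ratio, with medians of -0.19 without and -0.12 with introns by DESeq2 and of -0.05 and -0.02 with no filter on low counts. Between genotypes in total RNA the medians were 0.10 and -0.01 in members and 0.08 and -0.03 in all genes.

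The composition of the nuclear libraries differed between genotypes. The 4 nuclear rRNA loci took 2.79 and 11.2% of counts in wild type nuclei and at most 1.59% in the nuclei labelled eds4, and chloroplast-encoded genes took 1.33 and 4.21% against 0.543 and 0.259%. With rRNA and chloroplast loci left out before scaling, an alternative chosen after seeing the data, 0 members passed in the nuclear genotype comparison, as in the main result. Endodermis markers summed to 103 to 123 CPM in wild type nuclei and 66.9 to 80.7 CPM in the nuclei labelled eds4. SCR of that list went the other way (23.7 and 22.1 against 37.5 and 37.2 CPM). Sums were higher in eds4 for guard cell (21.8 to 33.4 against 35.5 to 44.3 CPM), epidermis (391 to 413 against 444 to 478 CPM) and phloem markers (89.4 to 91.6 against 93.1 to 100 CPM). In each of these lists 0 genes passed between genotypes in nuclei. The part of the sorted cells in the differences of PSAD2, CP12-2, PSBY, ATPD and PSAD1 was not tested. Of 11 regulators 0 passed, and GLK2 had the largest change of ratio among them, 1.87 (SE 0.61, adjusted p = 0.788 by edgeR).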

How the data were processed

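The authors deposited 3 tables of whole-number read counts per locus, with the locus coordinates and an effective length. Per the submitters' processing notes, TopHat2 2.1.1, SAMtools 1.3 and the TAIR10 build were used. The sources used here do not give the counting program, its strand setting, or its rules for introns and for reads with several matches. Per the labels' protocols, poly(A) RNA was selected and libraries were made with a TruSeq kit and 12 cycles of PCR; the molecule of the nuclear samples is labelled nuclear RNA.

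Columns were matched to samples by their labels, and 0 columns belonged to other samples. The deposited counts went into edgeR 4.0.16 under R 4.3.3 (filterByExpr by group, TMM scaling, quasi-likelihood F test), with Benjamini-Hochberg adjustment over all genes and a threshold of 0.05. The 7 profiling libraries were fitted alone and the 8 libraries of the distribution experiment together; the interaction with the experiment used the 11 whole-seedling libraries. SE were derived from the log2 difference and its F statistic. Members were counted from these fits, with no test of a list. Replicate pairs gave a chi-square of 11.4 to 122 times its degrees of freedom, beyond counting noise, so none was a copy of another. The fits were checked on simulated counts, with genes drawn independently and changes larger than any genotype difference of a member. That check therefore does not cover differences of the size reported between genotypes. Totals per library limit the precision of a level by counting error only, and reads without molecular identifiers are not independent molecules.

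Alternatives were DESeq2 1.42.0, other scalings, no filter on low counts, a replicate block, a term for replicate sets, subsets of libraries, and leaving out each library. The 40 members, the gene lists and the naming rule were chosen with earlier results of these data known. Values in every library are given for the member of each complex with the highest CPM per kb in wild type seedlings, for paralog pairs, for the 3 lowest and 3 highest wild type nuclear ratios and for members that stood out between genotypes; the last were chosen after their values were seen. Sequences come from the RefSeq TAIR10.1 assembly, whose gene boundaries equal those of the deposited tables for 21.5% of 27998 shared loci, so gene positions are given as deposited and sequence positions as in TAIR10.1. Motif counts also come from that annotation. In the medians by introns, genes without introns were those whose deposited length equals their deposited effective length. The 11 members without introns by that rule also have 1 exon in the TAIR10.1 annotation.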

Additional observations from a re-analysis of the deposited data

Results flagged for a closer look

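Each of the 40 members was examined for a library standing apart in the group of 4 wild type profiling seedlings, the only group large enough. PETE2 was the 1 gene set apart: its level in replicate 3 was 2251 CPM, while the nearest library lay at 2508 CPM and the highest at 2529 CPM. The gap took 0.927 of the range, above Dixon's 95% critical value for 4 samples. Chance sets apart about 1 in 20 groups. Replicate 3 was the lowest wild type library in 38 of 40 members.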

How the results depend on the processing

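In profiling seedlings the number of members called was 0 with edgeR, 6 with DESeq2, 5 with the replicate block, 7 with a term for replicate sets and 2 with replicates 1 and 2 alone; it was 0 without any single library, and the median lay between -0.34 and -0.16. Same-numbered profiling libraries correlated in their deviations by 0.386, -0.152 and 0.422, and those of the distribution experiment by -0.03 to 0.238. Replicate 3 was also the lowest profiling library in 38 of 40 members in the wild type and in 40 of 40 in eds4. The labels give only a replicate number, so the main fits leave it out. Whether same-numbered profiling libraries were handled together was not tested, and the number of members called there depended on the block. In every other comparison the replicate block left the number of members called within 1.5 times (39 in wild type nuclei against total RNA, 39 in eds4, 0 elsewhere). For wild type nuclei against total RNA, leaving out 1 library gave a median of -2.48 to -2.11 and 35 to 39 calls, and for eds4 -2.54 to -2.04 and 36 to 38. In the nuclear genotype comparison 1 member was called with no filter and 2 with DESeq2. The median change of ratio ran from -0.29 to 0.21 without single libraries. The cause of these shifts was not tested. No called value changed sign under any alternative run. DESeq2 moved the median of all genes by -0.16 in the change of ratio and by -0.10 in the nuclear genotype comparison, and the signs of PSAG, GAPA and SBPASE (change of ratio) and of PSAK, PSAL, PSBR and PSBW (nuclei), all near 0, turned with it. In seedlings 10 genes with values near 0, none of them called, changed sign in at least 1 alternative. Upper-quartile scaling turned PETC (0.0154), FNR1 (0.0302), RBCS3B (0.0162) and SBPASE (0.0089) and left every photosystem gene below 0; replicates 1 and 2 alone turned PETC (0.0276), FNR1 (0.085), RBCS3B (0.0195), GAPB (0.0408) and SBPASE (0.11); the term for replicate sets turned RBCS1A (-0.0332). Without single libraries PETC ran from -0.13 to 0.0824, FNR1 from -0.11 to 0.14, RBCS3B from -0.18 to 0.12, SBPASE from -0.12 to 0.11, RBCS1A from -0.12 to 0.16, RBCS1B from -0.0438 to 0.21, PSBX from -0.21 to 0.0645, ATPD from -0.21 to 0.0052, GAPB from -0.13 to 0.0808 and PRK from -0.14 to 0.0553. The nuclear ratio of FNR2, also not called, ran from -0.65 to 0.66 in the wild type and from -1.01 to 0.51 in eds4, and was -0.0052 with the replicate block in the wild type. Of all genes, the profiling comparison called 297 (DESeq2 1011, replicate sets 868, without eds4 replicate 1 42), the nuclear genotype comparison 78 (DESeq2 837, no filter 1167, without either wild type nuclear library 1).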
